A study of Mus musculus with 4 samples.

Results

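Schwann cells are the glia of peripheral nerve, and the genes described here are 8 that mark them or the myelin they make: Mbp, Pmp22, Prx, Egr2, Sox10, S100b, Mag and Ncam1. They were taken as a fixed list of symbols with no cut-off on their values, although earlier results of these data were known. All 8 were found among the 39179 genes of the count files. Skin was compared between wild-type (WT) mice and mice labelled Itch KO, 2 libraries of each, all on the C57BL/6 background. The knockout skin was taken from lesions, and the labels enter the phenotype as inflammation for WT as well. They name neither the Itch allele nor the age or body site. They also leave unsaid if replicates came from different animals, so p-values here measure a spread that may not be that between animals.

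In myelinated fibres a Schwann cell wraps its membrane around 1 axon, and the wraps fuse into compact myelin held together by adhesive and membrane-spanning proteins. Sox10 keeps cells in the Schwann lineage, and together with the POU factor Pou3f1 it switches on Egr2, which in turn drives the myelin genes. Schwann cells that do not myelinate hold bundles of thin axons, the kind most common in skin, and express Ncam1, L1cam and Ngfr in place of myelin genes. Several of the 8 genes are also used outside nerve: Sox10 by melanocytes, Egr2 by hair follicle cells and activated immune cells, S100b by fat and dendritic cells, and Pmp22 by many connective tissue and vessel cells.

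The promoters of Prx, Egr2 and Mag are shown because Prx is a myelin gene that was highest in 1 WT library, Egr2 is its upstream regulator with a different order of libraries, and Mag is the remaining myelin gene with a window free of annotated exons and a motif match. Each is the 250 bases before an annotated start, 5′ to 3′ on the gene's strand, from RefSeq (GRCm38.p6). Capitals mark matches to 3 motifs searched on both strands: the octamer of POU factors (ATGCAAAT), the SOX motif (ACAAAG or ACAATG) and the EGR motif (GCGTGGG or GTGGGCG, which can share bases with each other). The motifs were chosen after the sequences had been seen.
Prx: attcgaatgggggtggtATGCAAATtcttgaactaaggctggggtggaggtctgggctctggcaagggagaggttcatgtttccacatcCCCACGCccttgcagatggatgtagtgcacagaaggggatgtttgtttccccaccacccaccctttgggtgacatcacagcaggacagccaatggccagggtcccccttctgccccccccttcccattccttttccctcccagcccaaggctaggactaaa
Egr2: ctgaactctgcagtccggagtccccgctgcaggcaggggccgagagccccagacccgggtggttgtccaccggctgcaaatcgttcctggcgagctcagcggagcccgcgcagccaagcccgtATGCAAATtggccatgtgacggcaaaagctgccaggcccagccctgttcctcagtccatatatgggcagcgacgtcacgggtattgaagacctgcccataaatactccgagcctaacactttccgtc
Mag: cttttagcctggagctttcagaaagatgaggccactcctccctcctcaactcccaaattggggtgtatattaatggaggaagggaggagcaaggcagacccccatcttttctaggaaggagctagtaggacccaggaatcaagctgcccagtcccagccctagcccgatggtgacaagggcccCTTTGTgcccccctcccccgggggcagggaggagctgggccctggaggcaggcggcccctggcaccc
The Prx window (chr7:27499074-27499323, plus strand) held 1 octamer, starting 233 bases before the start site, and 1 EGR match on the opposite strand. The Egr2 window (chr10:67537619-67537868, plus strand) held the same octamer 127 bases before the start; it lies inside the annotated span of the gene, between exons. The Mag window (chr7:30914923-30915172, minus strand) held 1 SOX match. Of 32851 RefSeq windows of this length, 1.6% held an octamer, 25.2% a SOX match and 10.3% an EGR match. These are matches of letters only. RefSeq windows were matched for 5 of the 8 genes, 14 windows in all, and Mbp, Sox10 and Ncam1 are named without one. Of those 5 genes, 2 had a window with an octamer, 1 with a SOX match and 2 with an EGR match. The windows of Pmp22 and S100b held no match to any of the motifs.

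Reads assigned to genes numbered 15144957 to 16008351 per library. Itch itself stood at 96.7 and 103 CPM (read counts relative to TMM-scaled library size) in WT skin, with 11.7 and 11.7 CPM in knockout skin, so each library lay on the side of its label. Xist stood at 1055 and 631 CPM in WT skin, with 0.947 and 0.892 in knockout skin. Eif2s3y on the Y chromosome stood at 0.133 and 0.126 against 69.5 and 73.7 CPM. Genotype, sex and the lesional source of the knockout skin thus cannot be told apart in any comparison below. Keratinocyte genes were high in every library, with the 6 listed summing to 11955 to 14143 CPM. The edgeR quasi-likelihood test with Benjamini-Hochberg adjustment called 1 of 16651 tested genes at adjusted p under 0.05, and 22.8% had an unadjusted p under 0.05. The 1 gene called was the Y-linked Eif2s3y (edgeR adjusted p = 0.0269). Itch itself missed the threshold (edgeR adjusted p = 0.0509), so failing this test does not show that a gene is unchanged.

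The 8 genes were counted in all 4 libraries, whereas genes listed as particular to oligodendrocytes were near 0. Mog, Mobp, Ermn and Hapln2, made by oligodendrocytes of the brain and spinal cord, had 0 to 2 counts per library, and Opalin and Olig2 had 0 in every library, which allows a level of up to 0.189 to 0.200 CPM per library at 3 counts. Axonal transcripts, read from a list of 9, differed widely in level. The neurofilament genes Nefl, Nefm and Nefh had 0 to 8 counts per library, and the sodium channel genes Scn9a and Scn10a had 0 in all. Stmn2, a tubulin-binding protein of neurons, was counted 182 and 176 times in WT and 166 and 120 times in the knockouts, or 12.1 and 11.1 against 10.5 and 7.65 CPM. Tubb3, a tubulin of neurons, stood at 0.667 and 31.6 CPM in WT skin, with 49.1 and 68.4 in knockout skin. Its WT libraries were 47.4-fold apart. The summed hair matrix genes were also lowest in WT replicate 1, at 47.1 against 881 CPM in WT replicate 2, and their part in the Tubb3 level was not tested. Of the remaining listed genes, Uchl1 stood at 1.47 and 0.757 CPM in WT skin, with 2.84 and 3.57 in knockout skin. Prph had 3 to 7 counts per library.

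Per kilobase of annotated exon, Pmp22 had the highest mean level over the 4 libraries at 61.0 CPM per kb, followed by Egr2 at 25.9 and Mbp at 11.3. S100b at 3.60, Prx at 2.96 and Sox10 at 2.31 CPM per kb formed a middle group, and Mag at 0.480 and Ncam1 at 0.445 were lowest. Neighbours in this order overlapped in their ranges over libraries, except that the lowest Mbp library, at 5.71 CPM per kb, exceeded the highest S100b library, at 4.85, and the lowest Sox10 library, at 1.10, exceeded the highest Mag library, at 0.704. The length used for Mbp includes exons of its long golli transcripts, which are also made in lymphoid cells, and gene counts do not separate them from the transcripts of myelin.

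**Figure D1:**
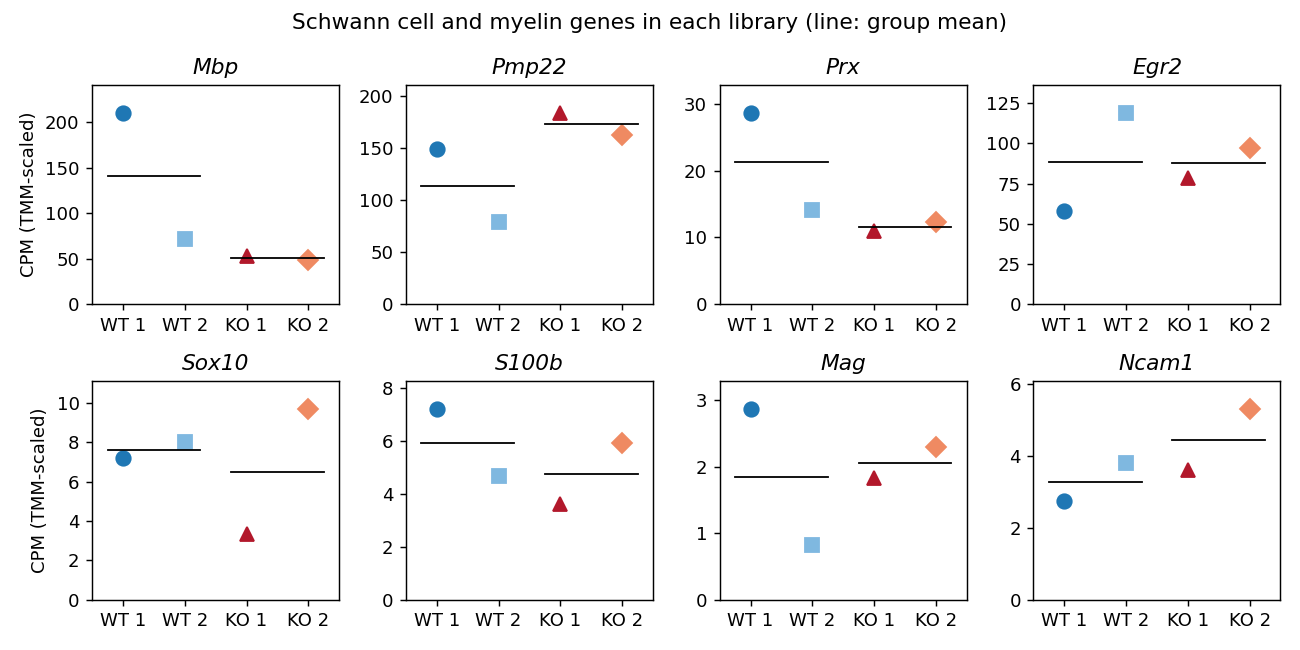
Level of each of the 8 genes in CPM (vertical axis, from 0) in the 2 WT and 2 knockout (KO) libraries, with a line at each group's mean of 2 libraries. Mbp and Prx were highest in WT replicate 1, at 210 and 28.6 CPM, while Egr2 was lowest there at 58.0 CPM.

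None of the 8 genes passed the edgeR test between genotypes, and 1 passed in DESeq2. By edgeR 0 of 8 had adjusted p under 0.05, against 0.00601% of all genes tested, and 0 of 8 had an unadjusted p under 0.05, against 22.8%. DESeq2 called 1, Mbp, lower in the knockouts (adjusted p = 0.0495), against 6.16% of all genes called lower and 14% called in either direction. Limma-voom called 0, and 0 of the 8 had an unadjusted p under 0.05 there, against 21.5% of all genes. Their median log2 change (log2 of the fold change, knockout over WT) was -0.12, against 0.01 over all genes tested. The knockout pair lay wholly above the WT pair for 1 gene, Pmp22, and wholly below it for 2, Mbp and Prx, where 31.2% and 30% of all genes tested did so. With edgeR, and in the groups that did not overlap, the share of the 8 was thus not above that of all genes. In bulk skin, fewer cells of a type and less RNA per cell cannot be told apart.

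Mbp and Prx, a structural pair of myelin, shared 1 order of groups and had their highest level in 1 WT library. Mbp (ENSMUSG00000041607, GRCm38 chromosome 18, 82475146 to 82585637, plus strand) encodes myelin basic protein, which lies on the inner face of the membrane and draws it together. It stood at 210 CPM in WT replicate 1, 71.0 in WT replicate 2, and 52.9 and 48.4 in knockout replicates 1 and 2. WT replicate 2 was much closer to the knockouts than to the other WT library, although the groups did not overlap. The log2 change was -1.47 (SE 0.55, edgeR adjusted p = 0.224).

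Prx (ENSMUSG00000053198, GRCm38 chromosome 7, 27499324 to 27520214, plus strand) encodes periaxin, a scaffold that links the outer Schwann cell membrane to the basal lamina and is needed to keep myelin stable. It stood at 28.6 and 14.1 CPM in WT skin, with 10.9 and 12.3 in knockout skin (log2 change -0.88, SE 0.41, edgeR adjusted p = 0.278). The exact Poisson 95% interval of WT replicate 2, 12.3 to 16.1 CPM, overlapped those of both knockout libraries, 9.36 to 12.7 and 10.6 to 14.2, and such intervals cover counting error only. An antisense gene shares 300 bases with Prx exons and had 4 to 17 counts per library. Without strand information reads of the shared bases cannot be assigned to either, but the partner's counts were far below the 173 to 429 of Prx.

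The size of the change in both genes depended on WT replicate 1, although both stayed below 0 without it. Without it, the log2 change was -0.49 (SE 0.17) for Mbp and -0.29 (SE 0.26) for Prx, with edgeR adjusted p = 0.138 and 0.553. Without WT replicate 2, it was -2.05 (SE 0.15) and -1.30 (SE 0.23), with adjusted p = 0.000528 and 0.00937. Fits without a WT library take their spread from the knockout pair and assume that the remaining WT library varies alike. They called 7.69% of all genes without WT replicate 1 and 30.6% without WT replicate 2.

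Pmp22 and Mag, the other genes of the myelin sheath, did not follow that order. Pmp22 (ENSMUSG00000018217, GRCm38 chromosome 11, 63128982 to 63159547, plus strand) encodes a protein that spans the membrane of compact myelin and is also made by cells outside nerve. It stood at 149 and 79.2 CPM in WT skin, with 183 and 163 in knockout skin (log2 change 0.60, SE 0.34, edgeR adjusted p = 0.346). Both knockouts were above both WT libraries, and the larger gap was between the WT libraries themselves. Without WT replicate 1 the log2 change was 1.12 (SE 0.17, adjusted p = 0.0187), and without WT replicate 2 it was 0.22 (adjusted p = 0.335), so the size and the call depended on which WT library was used.

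Mag (ENSMUSG00000036634, GRCm38 chromosome 7, 30899176 to 30914873, minus strand) encodes an adhesion protein of the innermost wrap, facing the axon. It was counted 43 and 13 times in WT and 29 and 36 times in the knockouts, or 2.87 and 0.821 against 1.83 and 2.29 CPM. The WT libraries were thus the highest and the lowest of the 4, 3.49-fold apart, and both knockouts lay between them. The log2 change was 0.16 (SE 0.69, edgeR adjusted p = 0.902). It was 1.32 without WT replicate 1 and -0.47 without WT replicate 2 (adjusted p = 0.247 and 0.488), so its direction depended on the WT library used.

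**Figure D2:**
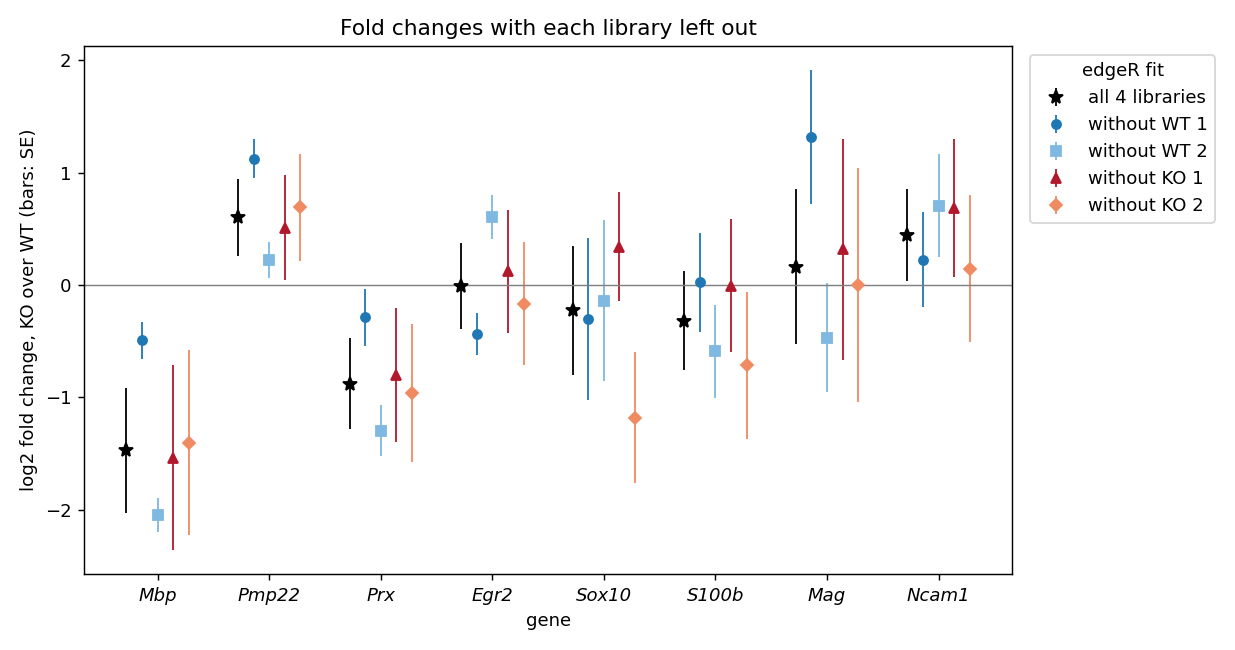
Log2 change of knockout over WT (vertical axis, bars 1 SE) for the 8 genes in the edgeR fit of all 4 libraries and with each library left out. Mbp ranged from -2.05 to -0.49 and stayed below 0, whereas Mag, Egr2, Sox10 and S100b had values on both sides of 0.

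Sox10 and Egr2, the transcription factors among the 8, showed different orders of libraries. Sox10 (ENSMUSG00000033006, GRCm38 chromosome 15, 79154908 to 79165240, minus strand) stood at 7.20 and 8.02 CPM in WT skin, with 3.35 and 9.68 in knockout skin. The knockout libraries were the lowest and the highest of the 4, and the interval of knockout replicate 1, 2.51 to 4.38 CPM, did not overlap those of the others, the lowest of which began at 5.91. The log2 change was -0.22 (SE 0.58, edgeR adjusted p = 0.836), and it was 0.34 without knockout replicate 1 and -1.18 without knockout replicate 2. Melanocytes, which also express Sox10, were represented by 8 genes that summed to 67.6 and 665 CPM in WT skin, with 218 and 467 in knockout skin. Knockout replicate 1 was thus below knockout replicate 2 in this list as well, while WT replicate 1 was lowest in the list and not in Sox10. The part of melanocytes in the Sox10 level was not tested.

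Egr2 (ENSMUSG00000037868, GRCm38 chromosome 10, 67535475 to 67542188, plus strand), also called Krox20, is a zinc finger factor required for myelination. It stood at 58.0 and 119 CPM in WT skin, with 78.7 and 97.0 in knockout skin, so the WT libraries bracketed the knockouts and WT replicate 1 was lowest. The log2 change was -0.01 (SE 0.39, edgeR adjusted p = 0.991), and it was 0.60 without WT replicate 2 and -0.44 without WT replicate 1 (adjusted p = 0.0638 and 0.219). Egr2 was the only one of the 8 at least 2-fold higher in WT replicate 2 than in WT replicate 1, as were 8.54% of all genes tested. The 7 hair matrix genes, among them the hair keratin Krt35, summed to 47.1 and 881 CPM in WT skin, with 726 and 1009 in knockout skin, with WT replicate 1 lowest as for Egr2, and their part in the Egr2 level was not tested.

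As an early response gene, Egr2 could also be set beside others of that class. Of 9 other immediate early genes, 8 were higher in each knockout library than in either WT library and 1, Egr3, was lower in each, beside 31.2% and 30% of all genes tested. Egr1 stood at 65.2 and 117 CPM in WT skin, with 220 and 198 in knockout skin (log2 change 1.20, edgeR adjusted p = 0.152), and Egr3 at 52.2 and 62.0 against 26.0 and 31.7 CPM. Egr2 thus showed neither order, with overlapping groups.

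S100b and Ncam1, the calcium-binding and surface markers, had overlapping groups. S100b (ENSMUSG00000033208, GRCm38 chromosome 10, 76253853 to 76261159, plus strand) encodes the calcium-binding protein used to stain Schwann cells. It stood at 7.20 and 4.67 CPM in WT skin, with 3.60 and 5.93 in knockout skin (log2 change -0.32, SE 0.44, edgeR adjusted p = 0.686). Each group held 1 higher and 1 lower library. The 8 adipocyte genes, a cell type that also makes S100b, summed to 5474 and 2850 CPM in WT skin, with 3616 and 3641 in knockout skin, and their part was not tested.

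Ncam1 (ENSMUSG00000039542, GRCm38 chromosome 9, 49502136 to 49798925, minus strand) encodes a cell adhesion molecule of non-myelinating Schwann cells, and also of regenerating muscle and some lymphocytes. It was counted 41 and 60 times in WT and 57 and 83 times in the knockouts, or 2.73 and 3.79 against 3.60 and 5.29 CPM. WT replicate 2 lay above knockout replicate 1, and the log2 change was 0.45 (SE 0.41, edgeR adjusted p = 0.539). An antisense gene sharing 417 exonic bases had 0 or 1 count per library.

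For 6 of the 8 genes the log2 gap between the WT libraries was larger than the log2 change between genotypes, as it was for 45.1% of all genes tested. WT replicate 1 was at least 2-fold above WT replicate 2 for 3 of the 8, Mbp, Prx and Mag, and for 10.7% of all genes tested, and it was the highest library for 4 of the 8, against 38.4% of all genes. Mbp was 2.96-fold and Prx 2.02-fold higher in WT replicate 1 than in WT replicate 2. The knockout libraries were at least 2-fold apart for 1 of the 8, Sox10, against 6.3% of all genes. With 1 library on each side, these differences have no replicate check.

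The other myelin genes were read from a list of 13, of which 11 could be tested. By edgeR 0 passed over all genes. At an unadjusted p below 0.05 there were 1 higher and 2 lower, as many as DESeq2 called each way, where in either direction 22.8% and 14% of all genes tested were called. The median log2 change was -0.45. WT replicate 1 was at least 2-fold above WT replicate 2 for 6 of the 11. Those with a large gap included Drp2, which encodes the partner of periaxin at the outer membrane, at 18.7 and 5.49 CPM in WT skin, with 4.17 and 4.14 in knockout skin. Not every gene of the list had this order: Fa2h, an enzyme of myelin and skin lipids, stood at 152 and 674 CPM in WT skin, with 350 and 363 in knockout skin.

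Genes of the list with the smallest p included 2 of the node and paranode, where the sheath meets the bare axon. Nfasc, encoding neurofascin, stood at 2.27 and 2.34 CPM in WT skin, with 10.3 and 14.6 in knockout skin (log2 change 2.43, SE 0.34, edgeR adjusted p = 0.0746). Cntnap1, encoding the axonal paranode protein Caspr, stood at 10.7 and 12.3 against 4.80 and 5.48 CPM (log2 change -1.16, SE 0.28, adjusted p = 0.134). These 2 genes had WT libraries close to each other and groups apart in opposite directions. Gal3st1, which sulfates the myelin lipid galactosylceramide, stood at 77.9 and 33.5 against 14.3 and 11.4 CPM (log2 change -2.11, SE 0.47, adjusted p = 0.121). DESeq2 called Nfasc, Cntnap1 and Gal3st1, with adjusted p = 5.32e-06, 0.0217 and 0.000538.

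**Figure D3:**
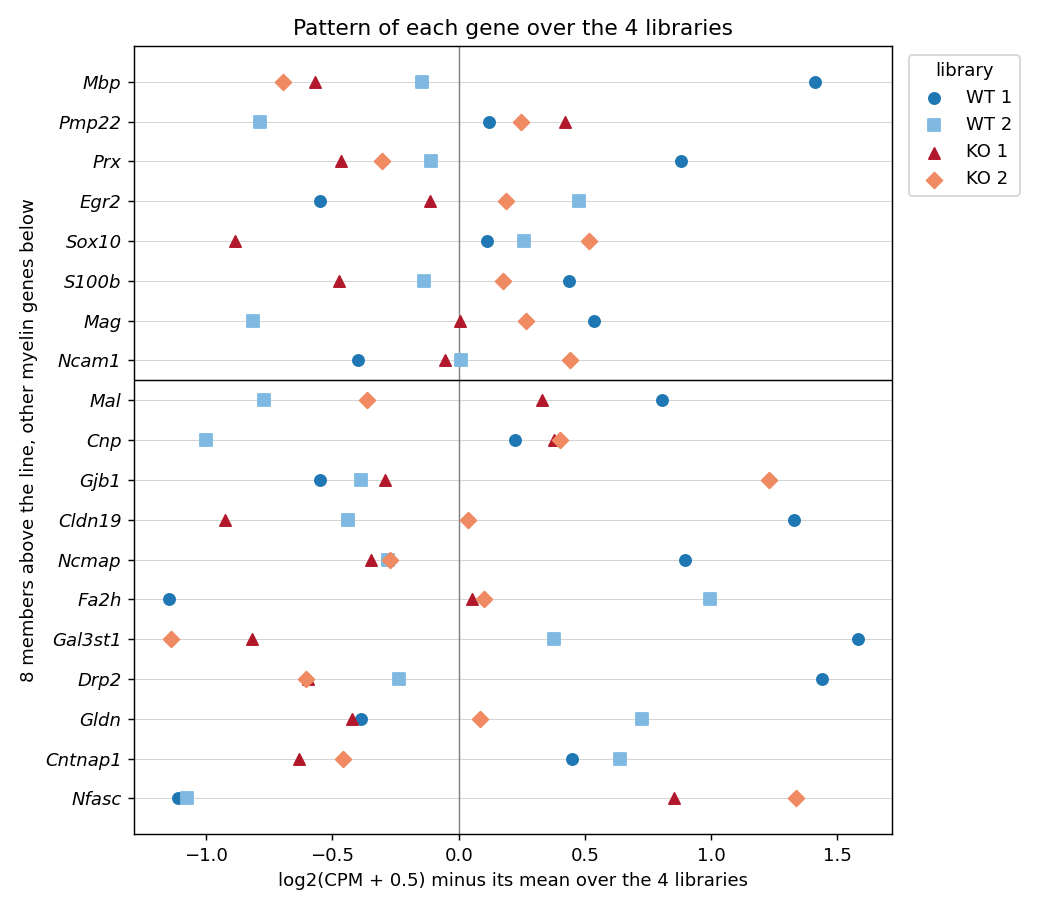
Each gene's log2(CPM + 0.5) in each library minus its mean over the 4 libraries (horizontal axis), for the 8 genes above the line and 11 other myelin genes below it. WT replicate 1 stands to the right for Mbp, Prx, Cldn19, Ncmap and Drp2, and to the left for Egr2 and Fa2h.

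Among 10 genes of growth factor and matrix signals to Schwann cells, edgeR called 0. At an unadjusted p below 0.05 there were 2 higher and 3 lower of the 10, beside 22.8% of all genes tested, and DESeq2 called 2 each way, beside 14%. Erbb3, the receptor through which Schwann cells read neuregulin and also a keratinocyte receptor, stood at 260 and 229 CPM in WT skin, with 134 and 137 in knockout skin (log2 change -0.85, SE 0.15, edgeR adjusted p = 0.0951). Its partner Erbb2 stood at 218 and 219 against 141 and 170 CPM (adjusted p = 0.197). Nrg1, the ligand, was counted 1 and 28 times in WT and 129 and 229 times in the knockouts, or 0.0667 and 1.77 against 8.15 and 14.6 CPM (adjusted p = 0.201). Ligand and receptors thus had groups apart in opposite directions, none past the threshold in edgeR. Dag1 encodes dystroglycan, the laminin receptor that binds the periaxin complex. It had 208 and 153 CPM in WT skin, with 109 and 106 in knockout skin (edgeR adjusted p = 0.155). The laminin chain gene Lamc1 had 115 and 101 CPM in WT skin, with 176 and 161 in knockout skin (edgeR adjusted p = 0.137). DESeq2 called Erbb3 and Dag1 lower and Nrg1 and Lamc1 higher, with adjusted p = 0.00037, 0.0343, 0.0226 and 0.0246.

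Of 10 regulators of the lineage, 9 could be tested, and 0 passed by edgeR adjusted p, by unadjusted p under 0.05 or by DESeq2. Pou3f1, which acts before Egr2 and is also a keratinocyte factor, stood at 159 and 137 CPM in WT skin, with 85.3 and 120 in knockout skin. Nab1 and Nab2, corepressors that bind Egr2, had overlapping groups, at 128 and 115 against 127 and 87.7 CPM and at 38.9 and 60.9 against 45.4 and 57.5 CPM. Tead1, which acts on Pmp22 and is widely expressed, stood at 203 and 71.3 against 54.1 and 53.5 CPM, highest in WT replicate 1 as Mbp was.

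Among 12 genes of non-myelinating and injured-nerve Schwann cells, edgeR called 0. At an unadjusted p below 0.05 there were 2 higher and 3 lower of the 12, beside 22.8% of all genes tested, and DESeq2 called 1 higher and 2 lower, beside 14%. Ngfr, the low-affinity neurotrophin receptor, stood at 33.7 and 18.5 CPM in WT skin, with 10.4 and 11.3 in knockout skin (log2 change -1.26, edgeR adjusted p = 0.162). The GDNF family ligands had groups apart in opposite directions. Gdnf stood at 27.9 and 8.21 against 5.12 and 4.65 CPM, and Artn at 0.333 and 0.189 against 1.71 and 3.06 CPM (edgeR adjusted p = 0.201 and 0.0995). Artn was counted only 5 and 3 times in WT and 27 and 48 times in the knockouts. DESeq2 called Artn higher and Ngfr and Gdnf lower, with adjusted p = 0.0181, 0.0293 and 0.0439. Gap43, a growth cone protein also made by injured Schwann cells, had 1.40 and 1.07 CPM in WT skin, with 2.40 and 3.12 in knockout skin. In the 4 lists together, 42 of 45 genes could be tested, and 13 reached an unadjusted p below 0.05, 5 of them higher and 8 lower, beside 22.8% of all genes tested.

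Skeletal muscle and adipocyte markers were mostly highest in WT replicate 1, where Mbp and Prx were highest too. Skeletal muscle genes, 10 in number, summed to 13122 CPM in WT replicate 1, 2124 in WT replicate 2, and 1077 and 889 in the knockouts. This is the order of libraries of Mbp, and 9 of 9 tested genes were highest in WT replicate 1, against 38.4% of all genes. By edgeR 0 of the 9 passed, while 6 were lower at an unadjusted p under 0.05, beside 22.8% of all genes in either direction. DESeq2 called 6 lower, beside 6.16% of all genes. Both knockouts lay below both WT libraries for 6 of the 9, beside 30%. Acta1, the actin of muscle fibres, stood at 4121 and 724 against 410 and 353 CPM. The satellite cell marker Pax7 was at 0 counts in WT replicate 2 and at 11, 1 and 1 in the others. Adipocyte genes were highest in WT replicate 1 for 7 of 8, against 38.4% of all genes. The endothelial list, 8 genes, summed to 387 and 174 CPM in WT skin, with 450 and 376 in knockout skin. The part of these tissues in the Mbp and Prx values was not tested.

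**Figure D4:**
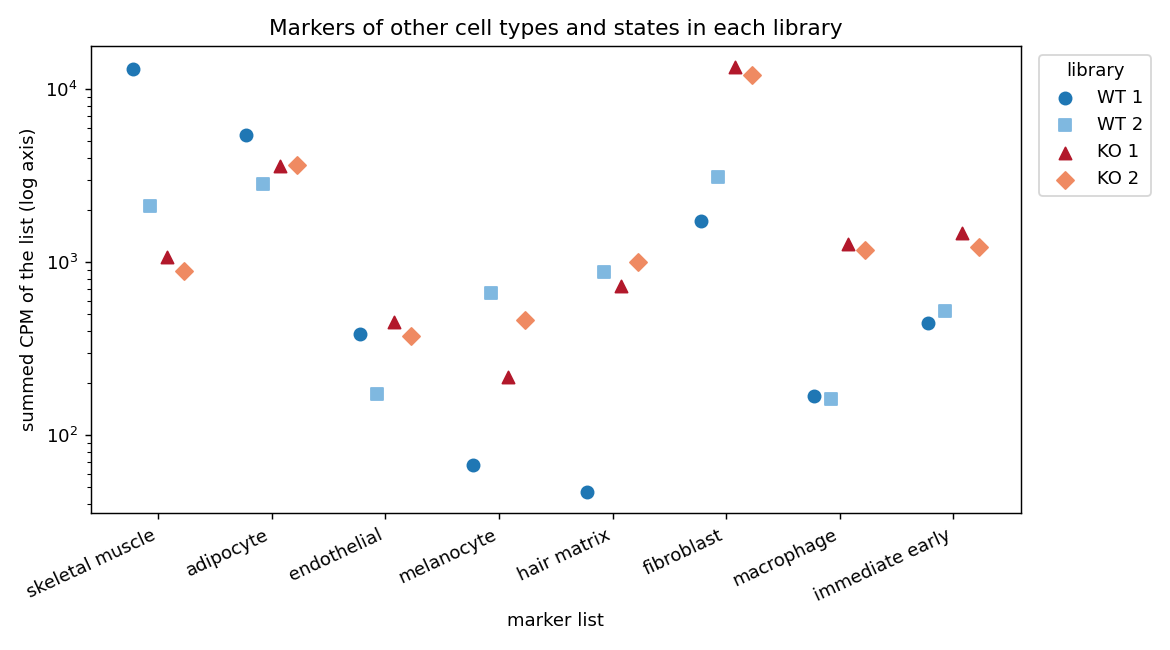
Summed CPM of 8 marker lists (vertical log axis) in each library. The muscle list is highest in WT replicate 1 at 13122 CPM and lowest in knockout replicate 2 at 889 CPM, the melanocyte and hair matrix lists are lowest in WT replicate 1, and the fibroblast and macrophage lists are higher in both knockouts.

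Fibroblast and macrophage markers were higher in each knockout library than in either WT library for every gene listed. The 6 fibroblast genes summed to 1738 and 3126 CPM in WT skin, with 13427 and 12175 in knockout skin, and the 6 macrophage genes to 169 and 161 against 1284 and 1174 CPM. The 7 genes of T and natural killer cells summed to 66.4 and 34.7 against 52.1 and 39.2 CPM, and the 4 of Langerhans and dendritic cells to 727 and 771 against 1259 and 1222 CPM. By edgeR 0 genes of these 4 lists passed over all genes, while 6, 6, 1 and 2 were higher at an unadjusted p under 0.05 and the same numbers were called higher by DESeq2. In either direction these were 22.8% and 14% of all genes tested. Pmp22 was higher in both knockouts, as were all 6 fibroblast genes and 31.2% of all genes tested. Within WT the order differed: Pmp22 was higher in replicate 1, at 149 against 79.2 CPM, and the fibroblast sum was higher in replicate 2. The endothelial list was lowest in WT replicate 2, at 174 CPM, as Pmp22 was. The part of either list in the Pmp22 level was not tested.

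By pattern over the 4 libraries, each of the 8 was paired with the nearest of 127 other listed genes, by distance of centred log2(CPM + 0.5). Mbp lay nearest to Drp2 (distance 0.13) and Prx to Ncmap, a myelin membrane gene (0.21). Pmp22 lay nearest to Pecam1, an endothelial adhesion gene (0.18), and Egr2 to Epcam, an epithelial and Langerhans cell gene (0.13). S100b was nearest to Gfap, an intermediate filament gene of glia (0.22), and Mag to the adipocyte gene Cidec (0.18). Sox10 (Pou3f1, 0.72) and Ncam1 (Tfap2a, 0.32) had no listed gene as near. Over 4 libraries such distances are descriptions, and between 4 and 997 of all genes tested were as near or nearer.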

How the data were processed

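The authors deposited raw read counts for every Ensembl gene, with each library in its own file. The tools were HTSeq 0.6.1 for counting, TopHat2, SAMtools 0.1.19 and CASAVA 1.8.2, on mm10 (GRCm38), per the submitters' processing notes. Annotation release, strand setting and read filters: not given in the sources used here. The 5 special counter lines were left aside; reads without a feature were 5.68% to 7.45% of counted reads, and ambiguous reads 4.48% to 4.70%. Symbols, coordinates and exon lengths came from GENCODE vM21, which matched 37607 of 39179 identifiers, and 1 listed symbol, Krt85, had no match.

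Genes were kept by filterByExpr (minimum count 10), scaled by TMM and compared with the quasi-likelihood F test of edgeR 4.0.16 in R 4.3.3 (legacy=TRUE, robust=TRUE, two-sided), adjusted over all 16651 genes by Benjamini-Hochberg at 0.05. All 8 members passed the filter. DESeq2 1.42.0, limma-voom (limma 3.58.1), other scalings, no filter, a replicate block and leaving out each library were alternatives. Replicates of a group differed by more than sampling noise (chi-square per degree of freedom 117 in WT, 25.2 in the knockouts). The edgeR, DESeq2 and limma procedures were tested on simulated counts. The members and lists were chosen with earlier results of these data known. The comparison of the WT gap with the genotype gap and the promoter motif search were chosen after seeing the data. Some genes of the myelin list are not reported here and were left out of its counts. Named genes were the 8 members, Itch, the 4 smallest p of each pathway list, genes at 0 in all libraries, the 2 most abundant of each marker list and the nearest pattern of each member, with values given for some of these. Mobp, Mog, Ermn, Hapln2, Nefl, Nefm, Nefh, Uchl1, Prph, Fa2h, Cldn19, Nrg1, Nab2, Pax7, Egr3 and Cd207 were named after their values were seen.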

Additional observations from a re-analysis of the deposited data

How the results depend on the processing

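Of 80 values of the 8 genes under 10 alternatives, 67 kept their direction and their side of the threshold, 4 passed only under the alternative and 9 changed direction. Genes called over the whole table were 1 with all libraries, 2329 with DESeq2, 0 with limma-voom, 488 without a filter and 0 with the replicate block, and 0 to 5320 when a library was left out. Members called were 0 by edgeR, or 1 with DESeq2 (Mbp, adjusted p = 0.0495, over alternatives 0.000528 to 0.744), and 0 to 2 with a library left out: 1 without WT replicate 1 (Pmp22) and 2 without WT replicate 2 (Mbp and Prx). With all libraries, members at an unadjusted p under 0.05 were 0, or 1 with library totals only and 1 with DESeq2, Mbp in each. The share of all genes at that p is not given for these alternatives, so the counts say nothing particular about the members. The median log2 fold change of the members ranged from -0.44 to 0.22 with a library left out, above 0 only without knockout replicate 1. The count with groups apart was 3 under each scaling. Egr2 turned above 0 with limma-voom (0.073), without a filter (0.0033) and in the replicate block (0.074). With a library left out, Egr2 ranged from -0.44 to 0.60, Sox10 from -1.18 to 0.34, S100b from -0.71 to 0.024 and Mag from -0.47 to 1.32; for each of these the cause was not tested. Same-numbered libraries share only a number: their deviations from the group means correlated at 0.18 across genes, and the replicate block changed no call of a member. Mag and Ncam1, at 13 to 83 counts per library, were the least deeply counted members.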
